A study of Homo sapiens with 24 samples.

Results

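SCC-25 and Cal-27 are established cell lines, both from squamous cell carcinomas of the human tongue, and their parental, erlotinib-sensitive cultures are compared here. Of the 24 Illumina beadchip arrays of the series, 6 belong to the comparison, 3 of parental SCC-25 and 3 of parental Cal-27. Of the 47231 probes, 17119 had 1 gene symbol and a detection p under 0.05 on at least 3 of the 12 arrays of both lines, and they stand for 12758 genes. The series also holds erlotinib-resistant derivatives of both lines and 2 further head and neck lines, FaDu and SQ20B. Erlotinib is an inhibitor of the epidermal growth factor receptor (EGFR) kinase, and no array of this comparison was exposed to it.

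Parental SCC-25 was grown in an equal mixture of DMEM and Ham's F12 medium with 10% fetal bovine serum and 400 ng/mL hydrocortisone. Parental Cal-27 was grown in DMEM with 10% fetal bovine serum, and hydrocortisone is not named for it. Both received 0.01% DMSO as vehicle for 48 hours before RNA was taken, from 200000 cells per sample as the labels give it. Medium and line therefore change together, and an effect of hydrocortisone or of the basal medium cannot be told apart from a difference between the lines. The labels name no separate cultures behind the 3 samples of a line, so p-values measure the spread between these samples, which may be technical. Each line is 1 tumour, and nothing here describes tongue carcinomas as a group.

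Squamous carcinoma cells keep parts of the programme of the stratified epithelium they come from. Basal keratinocytes make the keratins 5 and 14 and sit on laminin through integrins, desmosomes join neighbouring cells, and cells that move upwards switch to other keratins and to the proteins of the cornified envelope. Carcinoma cells can also carry mesenchymal genes such as vimentin, interferon-induced genes, and the antioxidant enzymes under the factor NRF2. These programmes are the groups described here, after the genes with the largest differences.

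Levels are log2 values after background correction and quantile normalization, and a level of 1 probe is compared between the lines and never with that of another probe. A gene is described by its brightest probe, and the mean over its probes is added where it moves a printed difference by over 1.5 times. Differences are SCC-25 minus Cal-27, so that 1 is a doubling in SCC-25, and they stand beside their standard error from limma with 3 arrays a line. A gene was called higher or lower in SCC-25 when limma's p, adjusted by Benjamini-Hochberg over all tested probes, was under 0.05. Where none of the 3 arrays of a line detected a gene at p under 0.05, that line gives only a bound, and the fold is preceded by "at least".

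The lines differed broadly. Of the 12758 genes, 7358 (57.7%) were called, 3684 of them (28.9%) higher and 3674 (28.8%) lower in SCC-25. Every count of list members called is to be read beside these shares. At least 2-fold differences numbered 2384 (18.7%), of which 1284 (10.1%) were higher and 1100 (8.62%) lower in SCC-25. The 3 arrays of SCC-25 and the 3 of Cal-27 did not overlap for 8259 genes (64.7%). Differences of at least 8-fold were found for 211 genes, 164 higher and 47 lower in SCC-25. The median difference over all genes was -0.005, the median absolute difference 0.409 and the median standard error 0.12 on the log2 scale. Across genes, arrays of 1 line correlated at 0.991 to 0.996 and arrays of different lines at 0.905 to 0.915, in levels that share the same probes. Between 39.5% and 43.1% of probes were detected on the SCC-25 arrays and between 41.5% and 42.7% on the Cal-27 arrays, with a median of 20 or 21 beads behind a probe on each.

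**Figure D1:**
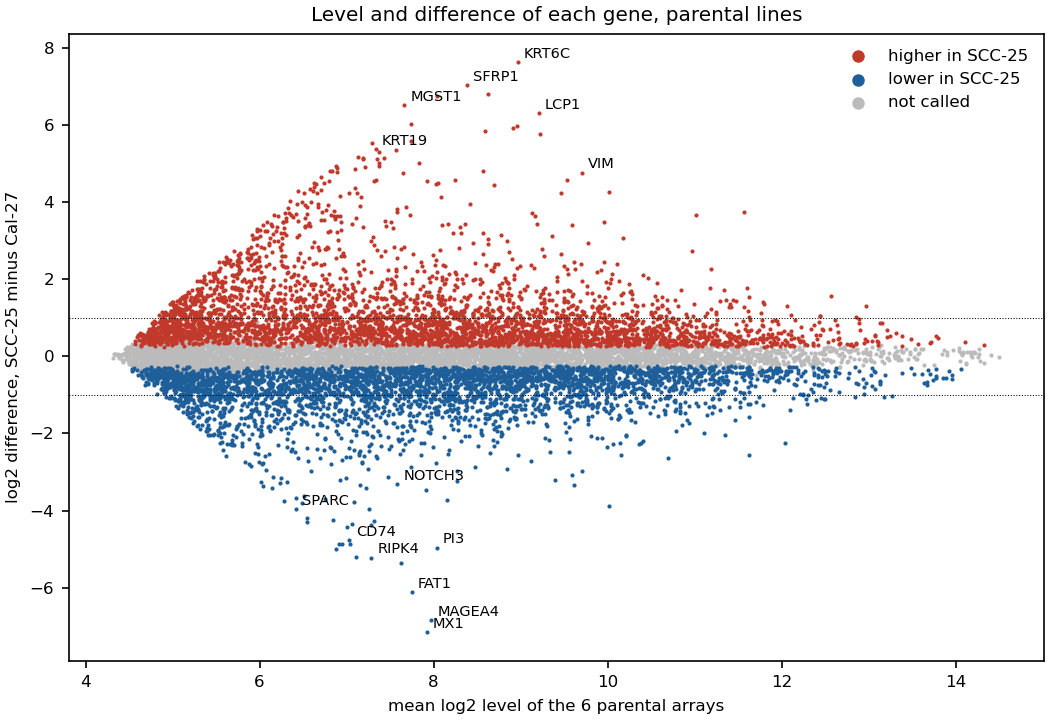
Each point is 1 gene, with its mean log2 level over the 6 parental arrays on the horizontal axis and its log2 difference, SCC-25 minus Cal-27, on the vertical axis; red is called higher and blue called lower in SCC-25, grey not called, and the dotted lines mark 2-fold. The edges of the cloud open to both sides, with KRT6C at 7.62 at the top and MX1 at -7.16 at the bottom.

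Keratinocyte identity was present in both lines. Of 10 markers listed, 8 were tested, and all 8 were detected on every array of both lines. KRT5, the basal type II keratin, had log2 levels of 13.08, 12.95 and 12.86 in SCC-25, against 12.90, 12.68 and 12.75 in Cal-27. The lines overlapped and the difference of 0.18 ± 0.11 was not called (adjusted p = 0.18). The other 7 markers were higher in SCC-25, a direction called for 28.9% of all genes, among them the desmosomal cadherins DSC3 (1.61 ± 0.12) and DSG3 (1.08 ± 0.14), the basal keratin KRT14 (1.04 ± 0.12) and TRIM29 (0.93 ± 0.11). TP63 and KRT6A, the other markers listed, were not among the tested genes. Summed over the 8 markers, the linear level was 27675 to 30301 in SCC-25 and 17492 to 20160 in Cal-27.

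Of the markers of other cell types, those of fibroblasts were mostly tested and higher in SCC-25, and few of the others were tested. Of 11 leukocyte markers, 4 were tested, and the pan-leukocyte gene PTPRC and the T and B cell genes CD3D, CD3E and MS4A1 were not among them. CD68, a lysosomal protein abundant in macrophages and made at a lower level by many cells, was higher in SCC-25 by 2.10 ± 0.13 on its brightest probe and by 0.73 ± 0.20 and 0.68 ± 0.15 on the others. CD14 was lower by the difference -0.73 ± 0.11. LYZ was called higher at 0.30 but lost the call under 11 of 15 alternatives. ITGAM, at -0.43, was not called, though it was under 2 alternatives. Of the 4 tested, 2 were thus called higher and 1 lower. Only CDH5 of 7 endothelial markers was tested, and it was not detected on any SCC-25 array. Of 9 fibroblast markers 7 were tested and 5 were higher in SCC-25, all 5 at least 2-fold, with a median difference of 1.43 and with a summed linear level of 1100 to 1168 in SCC-25 and 218 to 260 in Cal-27. PDGFRB, the receptor that marks fibroblasts and pericytes, was undetected on all 6 arrays. Of 7 melanocyte markers 2 were tested, of which MITF was higher in SCC-25 by 1.35 ± 0.14 and PMEL differed by 0.14 ± 0.17 (adjusted p = 0.529). In bulk RNA, more cells of a type and more RNA per cell cannot be told apart.

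The largest difference was that of KRT6C, a keratin of the hair follicle and of activated epithelium that is nearly identical to KRT6A and KRT6B. KRT6C had log2 levels of 12.97, 12.76 and 12.60 in SCC-25, against 5.47, 4.93 and 5.07 in Cal-27. Every SCC-25 array stood over 7 log2 units above every Cal-27 array, and the difference was 7.62 ± 0.16 (adjusted p = 8.92e-09). Which of these 3 genes gives the signal is uncertain.

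SFRP1, a secreted antagonist that binds Wnt ligands, had log2 levels of 11.77, 12.02 and 11.89 in SCC-25, against 5.17, 4.90 and 4.54 in Cal-27. It was detected on all 3 SCC-25 arrays and on 1 Cal-27 array, and the difference was 7.03 ± 0.16 (adjusted p = 1.27e-08). SLC7A8, a transporter of large neutral amino acids, had log2 levels of 12.02, 12.04 and 12.02 in SCC-25, against 5.49, 5.26 and 4.91 in Cal-27, a difference of 6.80 ± 0.14, or 3.76 in the mean of its probes. MAGED1, a member of the MAGE family that is widely expressed in normal tissue, read 11.13, 11.59 and 11.49 in SCC-25, against 4.71, 4.63 and 4.66 in Cal-27. It was undetected on all Cal-27 arrays and was at least 87.8-fold higher in SCC-25 (adjusted p = 7.2e-09).

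MGST1, a membrane-bound glutathione transferase, was likewise undetected in Cal-27 and at least 62.6-fold higher in SCC-25, with log2 levels of 10.95, 10.83 and 10.97 in SCC-25, against 4.24, 4.52 and 4.46 in Cal-27. The mean of its probes differed by 3.24. LCP1, the actin-bundling L-plastin of blood cells that many carcinomas also make, had log2 levels of 12.08, 12.54 and 12.46 in SCC-25, against 6.33, 5.79 and 6.04 in Cal-27. The difference was 6.31 ± 0.17, with all arrays of both lines detected and no overlap. LPXN, a paxillin relative of focal adhesions, differed by 5.96 ± 0.12 and MLLT11 by 5.92 ± 0.11. UCHL1, a ubiquitin hydrolase best known from neurons, differed by 5.84 ± 0.21, and MACROH2A2, a histone variant of silent chromatin, by 5.57 ± 0.10. The small heat shock protein CRYAB was at least 34.3-fold and GARIN5A at least 55.9-fold higher in SCC-25.

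MX1, the interferon-induced antiviral GTPase, was the most extreme gene in the other direction, with log2 levels of 4.32, 4.39 and 4.31 in SCC-25, against 11.53, 11.41 and 11.55 in Cal-27. No SCC-25 array detected it, and it was at least 92.5-fold lower in SCC-25 (adjusted p = 2.9e-09). MAGEA4, a cancer-testis antigen, had log2 levels of 4.48, 4.62 and 4.55 in SCC-25, against 11.46, 11.40 and 11.30 in Cal-27 and was at least 85.6-fold lower in SCC-25. FAT1, a giant protocadherin that is often mutated in head and neck cancer, had log2 levels of 4.75, 4.67 and 4.66 in SCC-25, against 10.81, 10.77 and 10.83 in Cal-27 and was at least 57.2-fold lower in SCC-25 (adjusted p = 3.01e-09). In all 3 genes the SCC-25 arrays lay at the level of undetected probes and the Cal-27 arrays far above it.

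PLS1, the plastin of epithelial microvilli and a paralog of LCP1, had log2 levels of 4.96, 4.99 and 4.87 in SCC-25, against 10.46, 10.24 and 10.20 in Cal-27. Its difference of -5.36 ± 0.11 ran opposite to that of LCP1. RIPK4, a kinase needed for epidermal differentiation, was at least 30.4-fold lower in SCC-25, BACE2 at least 26.8-fold, OLFM4, a secreted protein of crypt stem cells and neutrophils, at least 21.3-fold, NLRP2 at least 21.3-fold, FRG1 at least 20.8-fold and ARHGEF35 at least 22.7-fold. The elastase inhibitor PI3 had log2 levels of 6.84, 5.14 and 4.70 in SCC-25, against 11.08, 10.14 and 10.33 in Cal-27. The SCC-25 arrays ranged over more than 2 log2 units without reaching those of Cal-27, and the difference was -4.96 ± 0.49, or -5.60 without SCC-25 replicate 1. In the mean of its probes OLFM4 differed by -2.54. Among the 15 genes at each end, 15 of the 30 had a bound on 1 side, because they were undetected on every array of a line.

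**Figure D2:**
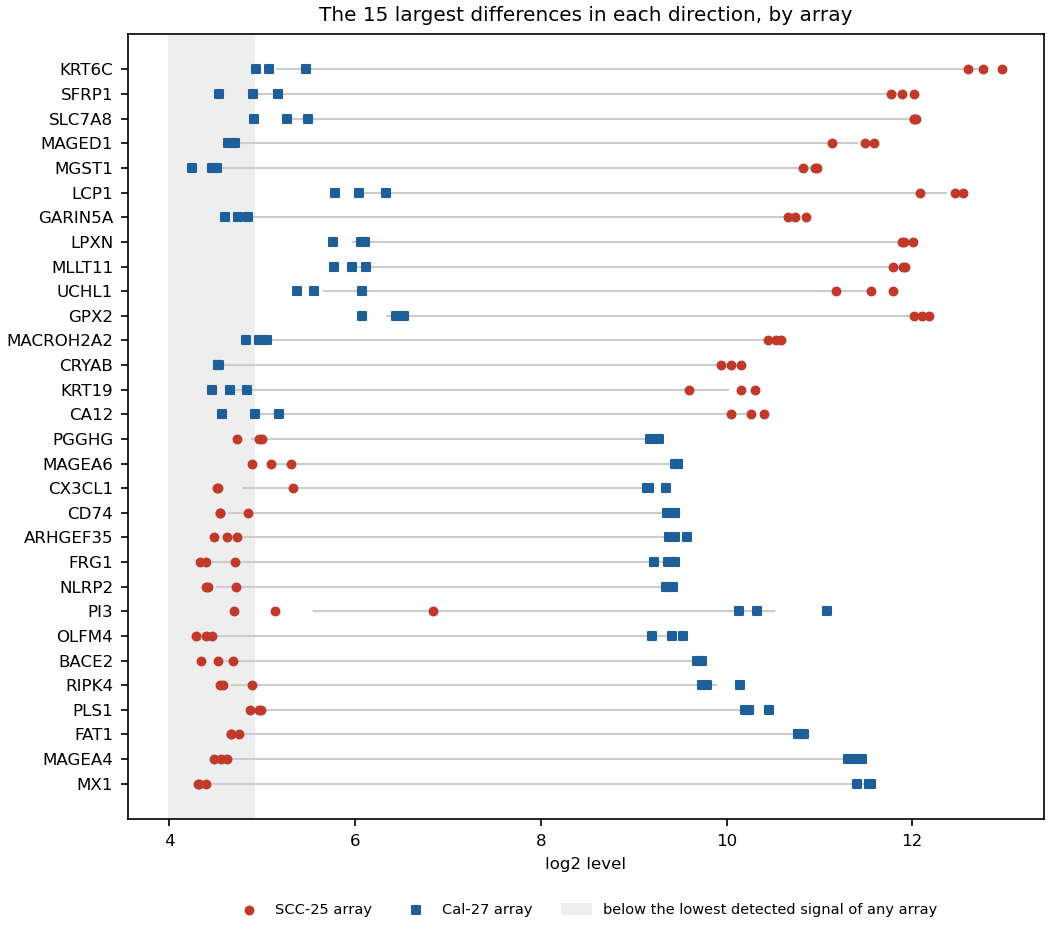
Log2 level on the horizontal axis of the 15 genes most higher (top) and most lower (bottom) in SCC-25, 1 row a gene, with red circles for the 3 SCC-25 arrays, blue squares for the 3 Cal-27 arrays and a grey line between the line means. The shaded band lies below 4.91, the lowest detected signal of any of the 6 arrays, and PI3 is the row whose SCC-25 arrays spread furthest.

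By their brightest probe, 443 genes (3.47% of those tested) were detected on all 3 SCC-25 arrays, called higher and undetected on every Cal-27 array, and 292 genes (2.29%) showed the reverse. The median bound was at least 1.95-fold among the 443 and at least 1.64-fold among the 292, and 228 and 189 of them had a bound under 2-fold. Another probe of the gene was detected in the dim line for 13 and 12 of them. Beside those named, the largest bounds in SCC-25 belonged to KRT19, KRT7 and SCG5, a chaperone of the prohormone convertase PCSK2 (at least 31.1-fold). They were followed by the autophagy protein MAP1LC3A (at least 27.9-fold), the secreted folate receptor FOLR3 (at least 27.2-fold) and the proteoglycan CSPG4 (at least 23.8-fold). The mean of the MAP1LC3A probes differed by 2.69. Of the 443 genes, 324 were also undetected on all 3 arrays of resistant Cal-27, 168 were detected on no array of parental FaDu or parental SQ20B, and 184 were detected on all 3 arrays of at least 1 of these lines. Of the 292 genes, 179 were undetected on all 3 arrays of resistant SCC-25, 51 on all arrays of FaDu and SQ20B, and 187 were detected on all 3 arrays of at least 1 of them.

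Keratins divided between the lines. Of 11 tested keratins of stratified epithelium 6 were higher and 3 lower in SCC-25, with a median difference of 0.69 beside -0.005 over all genes. KRT14 had log2 levels of 13.10, 12.87 and 12.89 in SCC-25, against 12.09, 11.77 and 11.89 in Cal-27, with no overlap. KRT13, a suprabasal keratin of mucosa (1.03 ± 0.14), and KRT16, of activated epithelium (0.95 ± 0.15), were also higher. KRT15, a basal keratin of resting epithelium and hair follicle stem cells, had log2 levels of 8.02, 7.72 and 8.09 in SCC-25, against 11.37, 11.24 and 11.25 in Cal-27. The difference was -3.34 ± 0.12 (adjusted p = 1.11e-07), and KRT80 (-1.39 ± 0.10) and KRT4, of the mucosal surface (-1.76 ± 0.24), were lower as well.

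All 3 tested keratins of simple, single-layered epithelium were called. KRT19 had log2 levels of 9.60, 10.30 and 10.16 in SCC-25, against 4.46, 4.65 and 4.83 in Cal-27, undetected in Cal-27 and at least 33.7-fold higher in SCC-25 (adjusted p = 8.59e-08). KRT7, a keratin of ducts and glands, had log2 levels of 9.92, 10.16 and 9.89 in SCC-25, against 4.93, 4.89 and 4.75 in Cal-27 and was at least 33.0-fold higher. KRT8, at 10.07, 10.72 and 10.68 in SCC-25, against 11.10, 11.15 and 11.11 in Cal-27, was lower in SCC-25 by the smaller difference of -0.63 ± 0.17, or -0.42 without SCC-25 replicate 1.

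Desmosome genes were more often higher in SCC-25, and genes of a cadherin and tight junction list more often lower. Of 11 tested desmosome genes 7 were higher and 2 lower in SCC-25, with a median of 0.47. DSC3 had log2 levels of 11.19, 11.06 and 10.99 in SCC-25, against 9.60, 9.51 and 9.30 in Cal-27, all SCC-25 arrays above all Cal-27 arrays, while the plakophilins PKP2 (-0.88 ± 0.10) and PKP3 (-0.61 ± 0.10, or -0.32 in the mean of its probes) were lower. Of 35 tested genes of the cadherin and tight junction list, which also holds other epithelial genes, 7 were higher and 19 lower, with a median of -0.32. ELF3, an epithelial ETS factor, had log2 levels of 5.12, 5.18 and 5.32 in SCC-25, against 8.09, 7.86 and 7.80 in Cal-27, a difference of -2.71 ± 0.12 (adjusted p = 2.75e-07). Cingulin, from CGN, a tight junction scaffold (-2.29 ± 0.12), and CLDN23, a claudin (-1.78 ± 0.12), were lower too, and the mucin MUC16 and the adhesion molecule CEACAM6 were undetected in SCC-25 and at least 2.52-fold and at least 3.59-fold lower. CTNNB1, beta-catenin, which links cadherins to actin and relays Wnt signals, ran the other way with 8.70, 8.48 and 8.54 in SCC-25, against 7.07, 7.04 and 7.07 in Cal-27, a difference of 1.51 ± 0.10.

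Connexins, the gap junction channel proteins, were higher in 4 and lower in 3 of 9 tested genes of the list, which includes pannexins. GJA1, connexin 43, differed by 1.70 ± 0.12, GJB6, connexin 30, by 1.87 ± 0.14, and GJB5 by 1.47 ± 0.12. GJA3 was undetected in SCC-25 and at least 3.08-fold lower, and GJC1 (-0.79 ± 0.10) and PANX1 (-1.17 ± 0.10) were lower. PANX2 differed by 1.49 ± 0.15. The differences of GJB2 (0.31 ± 0.13, adjusted p = 0.0686) and GJA5 (-0.09 ± 0.19, adjusted p = 0.713) were not called, although GJB2 was called without Cal-27 replicate 1, at 0.45, and GJA5 without SCC-25 replicate 3, at -0.32.

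Genes of adhesion to the matrix went both ways. Among 20 tested genes of hemidesmosomes, laminins and epithelial integrins 7 were higher and 9 lower in SCC-25, with a median of 0.002. ITGA5, the alpha chain of the fibronectin receptor, had log2 levels of 10.51, 10.88 and 10.96 in SCC-25, against 8.21, 8.01 and 8.22 in Cal-27, a difference of 2.64 ± 0.14. Its partner ITGB1 was higher by 1.29 ± 0.10, ITGB6, induced in wounds and carcinomas, by 1.89 ± 0.21, and podoplanin, PDPN, by 1.94 ± 0.12. LAMA5, a laminin alpha chain of basement membranes, had log2 levels of 10.66, 10.996 and 11.07 in SCC-25, against 13.12, 13.16 and 13.22 in Cal-27, and the difference was -2.25 ± 0.12 (adjusted p = 1.24e-06). COL7A1, of anchoring fibrils (-1.06 ± 0.13), plectin, PLEC (-1.01 ± 0.10), and CD44, the hyaluronan receptor (-0.97 ± 0.11, or -1.60 in the mean of its probes), were lower, and ITGB8 was undetected in SCC-25 and at least 2.97-fold lower.

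Genes of the cornified envelope and of squamous differentiation were called lower in 16 and higher in 12 of 37 tested members, with a median of -0.14. PPL, periplakin, an envelope and desmosome linker, had log2 levels of 7.53, 7.71 and 8.04 in SCC-25, against 10.53, 10.40 and 10.53 in Cal-27, a difference of -2.72 ± 0.14. SPRR1A, a small proline-rich envelope precursor, had log2 levels of 9.54, 7.18 and 7.42 in SCC-25, against 11.53, 10.89 and 10.99 in Cal-27. SCC-25 replicate 1 lay more than 2 log2 units above the other SCC-25 arrays but below every Cal-27 array, and the difference was -3.09 ± 0.54, or -3.84 without it. LY6D (-2.26 ± 0.15), CST6, an inhibitor of envelope-processing proteases (-1.94 ± 0.17), and ZNF750, a regulator of terminal differentiation (-1.89 ± 0.17), were lower. ECM1 (3.28 ± 0.17), the calmodulin-like CALML3 (2.39 ± 0.15) and the cross-linking enzyme TGM1 (1.83 ± 0.26) were higher.

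Of 14 tested genes of the calcium-binding S100 family 6 were higher and 4 lower in SCC-25. S100A8, which forms calprotectin with S100A9, had log2 levels of 7.90, 7.46 and 8.02 in SCC-25, against 11.43, 10.67 and 10.88 in Cal-27. S100A9 had log2 levels of 8.43, 8.12 and 8.12 in SCC-25, against 11.43, 11.02 and 11.11 in Cal-27, and the pair differed by -3.20 ± 0.21 and -2.97 ± 0.14 without overlap. S100A7, psoriasin, was undetected in SCC-25 and at least 7.21-fold lower. S100A2, enriched in basal keratinocytes (0.90 ± 0.11), and S100A4, linked to motility (0.70 ± 0.15, or 0.41 in the mean of its probes), were higher. Among 20 tested kallikreins and epithelial protease inhibitors, 5 were higher and 10 lower. SERPINB5, maspin, differed by 1.77 ± 0.10, SERPINB1, an inhibitor of neutrophil proteases, by -2.88 ± 0.13, SLPI by -1.75 ± 0.20 and WFDC2 by -2.78 ± 0.15.

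**Figure D3:**
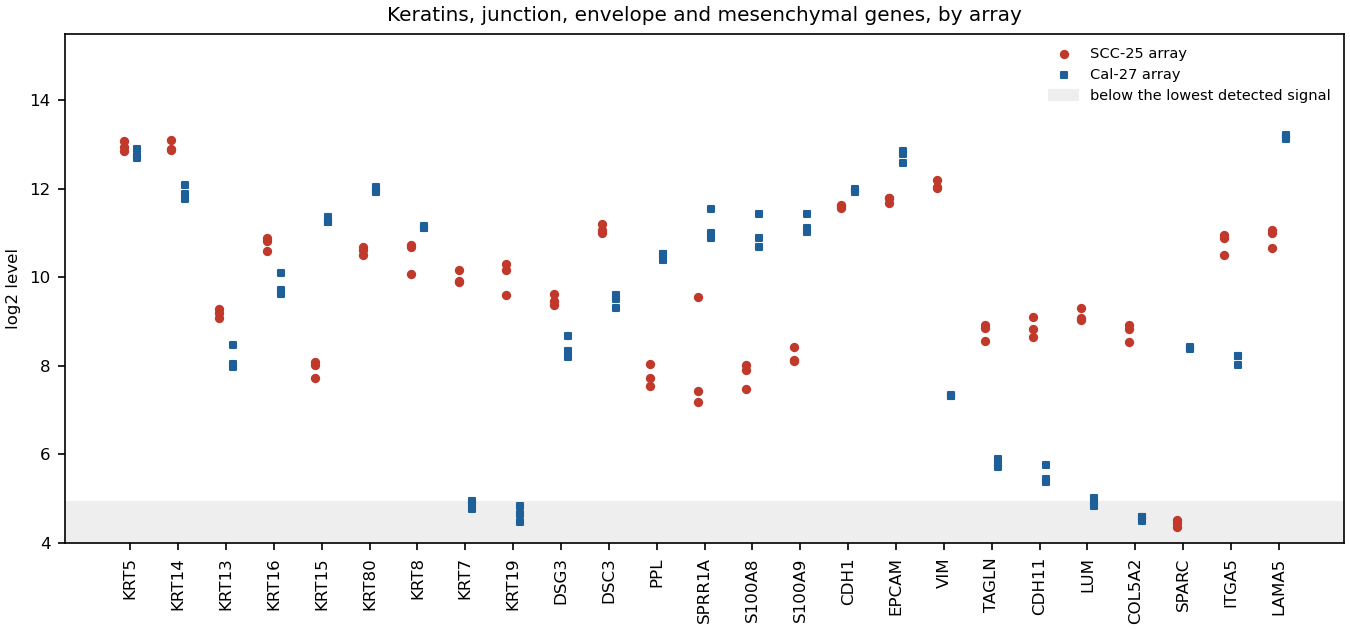
Log2 level on the vertical axis of 25 genes of keratins, junctions, envelope, matrix and adhesion, with red circles for SCC-25 arrays (left in each column) and blue squares for Cal-27 arrays (right), and a shaded band below 4.91, the lowest detected signal. KRT19 and COL5A2 are in the band in Cal-27 alone, SPARC is in it in SCC-25 alone, and KRT5 overlaps.

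Mesenchymal genes were mostly higher in SCC-25. Of 32 tested factors and markers of the epithelial to mesenchymal transition 20 were higher and 4 lower, with a median of 0.69. VIM, vimentin, the intermediate filament of mesenchymal cells, had log2 levels of 12.03, 12.03 and 12.19 in SCC-25, against 7.34, 7.30 and 7.32 in Cal-27. The arrays of each line lay close together, and the difference was 4.76 ± 0.10 (adjusted p = 8.07e-09). The mesenchymal cadherin CDH11 (3.34 ± 0.15), the collagen cross-linking oxidase LOX (3.59 ± 0.23), the BMP antagonist GREM1 (3.09 ± 0.15) and the actin-binding TAGLN (2.98 ± 0.12) were higher. CDH1, E-cadherin, remained detected on every array of both lines. SPARC, a matrix glycoprotein of mesenchymal cells, ran the other way with 4.51, 4.44 and 4.37 in SCC-25, against 8.40, 8.38 and 8.41 in Cal-27, undetected in SCC-25 and at least 10.8-fold lower. The factors SNAI1 and ZEB1 and fibronectin, FN1, were not among the tested genes.

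Of 19 tested collagens and small proteoglycans 10 were higher and 4 lower, with a median of 0.61. COL5A2, a fibrillar collagen chain, had log2 levels of 8.53, 8.93 and 8.84 in SCC-25, against 4.58, 4.48 and 4.57 in Cal-27 and was at least 14.1-fold higher in SCC-25. LUM, lumican, had log2 levels of 9.30, 9.03 and 9.07 in SCC-25, against 5.0, 4.82 and 4.92 in Cal-27, a difference of 4.22 ± 0.11, and COL8A1 and decorin, DCN, were undetected in Cal-27 and at least 8.49-fold and at least 4.59-fold higher. COL18A1, the basement membrane collagen that yields endostatin (-2.15 ± 0.10), COL12A1 (-1.74 ± 0.13) and COL4A2 (-1.02 ± 0.12) were lower. In the mean of their probes LUM differed by 2.63, DCN by 1.25 and COL12A1 by -0.79. LUM and DCN also stand on the fibroblast list, whose sums are given above with PDGFRB undetected, and the part of fibroblasts in these values was not tested.

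Matrix proteases and their inhibitors were higher in 12 and lower in 6 of 23 tested genes, all 12 of them at least 2-fold, and the list's median of 1.06 was the highest of the prepared lists with 10 or more tested genes. TIMP3, a matrix-bound inhibitor, had log2 levels of 8.76, 8.80 and 9.01 in SCC-25, against 4.56, 4.48 and 4.63 in Cal-27 and was at least 15.0-fold higher in SCC-25. MMP1, interstitial collagenase, had log2 levels of 10.05, 9.24 and 9.06 in SCC-25, against 5.63, 5.49 and 6.04 in Cal-27, a difference of 3.73 ± 0.25. Stromelysin 1, MMP3, differed by 3.75 ± 0.17, the thrombin and urokinase inhibitor SERPINE2 by 3.73 ± 0.12 and ADAM19 by 3.41 ± 0.14. ADAMTS1, an aggrecanase, had log2 levels of 5.24, 5.51 and 5.71 in SCC-25, against 8.63, 8.84 and 9.01 in Cal-27, a difference of -3.34 ± 0.15. Matrilysin, MMP7 (-2.15 ± 0.14), and tissue plasminogen activator, PLAT (-1.47 ± 0.12), were lower too.

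The target of erlotinib and its relatives were lower in SCC-25. EGFR, by its brightest probe, had log2 levels of 10.46, 10.52 and 10.40 in SCC-25, against 11.19, 11.23 and 11.35 in Cal-27. The difference was -0.80 ± 0.10 (adjusted p = 0.000137), a second EGFR probe differed by -1.49 ± 0.11, and the third by 0.07 ± 0.09, which was not called (adjusted p = 0.562). ERBB2, the receptor without a ligand of its own, had log2 levels of 8.30, 8.46 and 8.14 in SCC-25, against 9.09, 9.20 and 9.05 in Cal-27, a difference of -0.82 ± 0.11. ERBB3, the kinase-impaired partner, differed by -1.07 ± 0.13 on its brighter probe and by -1.46 ± 0.14 on the other. Over the 14 tested receptors, ligands and regulators 5 were higher and 7 lower, with a median of -0.31. HBEGF, a shed EGFR ligand, had log2 levels of 8.15, 8.70 and 8.63 in SCC-25, against 7.10, 7.21 and 7.06 in Cal-27, a difference of 1.37 ± 0.15, and the EGFR inhibitor ERRFI1 (1.24 ± 0.13) and the ubiquitin ligase CBL (1.16 ± 0.10) were higher. NRG4 was undetected in Cal-27 and at least 3.93-fold higher. The ligand NRG1 was called lower on its brightest probe (-0.79 ± 0.10), but not in the mean of its probes (-0.21, adjusted p = 0.124).

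Genes that the ERK kinases induce were higher in SCC-25 in 17 and lower in 3 of 22 tested members, with a median of 0.71. SPRY4, a feedback inhibitor of receptor signalling, had log2 levels of 7.40, 7.78 and 7.60 in SCC-25, against 5.05, 5.23 and 4.69 in Cal-27, a difference of 2.60 ± 0.16. The ETS factor ETV5 had log2 levels of 8.54, 8.72 and 8.84 in SCC-25, against 6.72, 6.90 and 6.77 in Cal-27, a difference of 1.90 ± 0.11. FOS (2.15 ± 0.23), the phosphatase DUSP1 (1.93 ± 0.25) and PHLDA1 (1.45 ± 0.10) were higher, while SPRY1 (-1.29 ± 0.10) and the ERK phosphatase DUSP5 (-0.66 ± 0.13) were lower. DUSP1 stands also among genes that glucocorticoids induce in many cells.

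Other receptor tyrosine kinases and ligands were higher in 8 and lower in 12 of 35 tested genes, or 57.1% called beside 57.7% of all genes. AXL, a receptor of the TAM family, had log2 levels of 9.79, 10.13 and 10.29 in SCC-25, against 11.76, 11.74 and 11.90 in Cal-27, and its ligand GAS6 had 9.24, 9.11 and 9.22 in SCC-25, against 11.21, 11.21 and 11.26 in Cal-27. Both were lower in SCC-25 without overlap, by differences of -1.73 ± 0.14 and -2.03 ± 0.09. FGF2 (-1.67 ± 0.16), the receptor FGFR3 (-1.62 ± 0.15, or -0.83 in the mean of its probes) and EPHA2 (-1.19 ± 0.10) were lower as well. VEGFC, a ligand of lymphatic growth, differed by 2.39 ± 0.10, EFNB1 by 1.84 ± 0.12, and EPHA4, undetected in Cal-27, was at least 4.73-fold higher.

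Genes of the glucocorticoid response, listed because hydrocortisone is named for the medium of SCC-25 and not for that of Cal-27, were higher in 15 and lower in 4 of 27 tested members, with a median of 0.54. TSC22D3, the glucocorticoid-induced leucine zipper GILZ, had log2 levels of 10.09, 10.44 and 10.36 in SCC-25, against 8.29, 7.90 and 7.82 in Cal-27. KLF9, another direct target of the receptor, had log2 levels of 8.15, 8.64 and 8.71 in SCC-25, against 5.45, 5.37 and 5.03 in Cal-27, and the pair differed by 2.29 ± 0.15 and 3.22 ± 0.17. CEBPD (2.14 ± 0.11) and MAOA (2.01 ± 0.16) were higher too, and the brightest probe of ANGPTL4 was undetected in Cal-27 and at least 10.8-fold higher. Another ANGPTL4 probe, detected on all 6 arrays, differed by 0.27 ± 0.10 (adjusted p = 0.0439), and the mean of its probes by 1.44. Lipocalin 2, LCN2 (-2.12 ± 0.22), and CAVIN2 (-1.16 ± 0.19) were lower. Line and medium cannot be told apart for any of them.

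Type I interferon genes did not move as 1 group. Interferon signals through the complex ISGF3, which binds the interferon-stimulated response element in promoters. Of 42 tested genes 15 were higher and 16 lower in SCC-25, with a median of -0.11, and without MX1 and MX2 the counts were 15 and 14 of 40 and the median -0.08. ISG20, an RNA exonuclease, had log2 levels of 9.29, 9.91 and 9.82 in SCC-25, against 7.44, 7.09 and 7.28 in Cal-27, and the difference was 2.40 ± 0.17 (adjusted p = 5.74e-06). IRF9, the DNA-binding part of ISGF3, had log2 levels of 10.32, 10.53 and 10.38 in SCC-25, against 8.87, 8.79 and 8.74 in Cal-27, a difference of 1.61 ± 0.10, and IFI27 was higher by 1.53 ± 0.12. EPSTI1 had log2 levels of 7.77, 7.57 and 7.51 in SCC-25, against 9.63, 9.94 and 9.93 in Cal-27, a difference of -2.22 ± 0.12 (adjusted p = 1.33e-06). SAMD9L (-1.62 ± 0.13) and the RNA sensor RIGI (-1.31 ± 0.12) were lower, and MX2 was undetected in SCC-25 and at least 2.63-fold lower.

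The promoters of 2 of the higher genes, IFI27 and ISG20, and 2 of the lower ones, MX1 and EPSTI1, are shown because they carry the same element while the genes differ in direction. Each holds 300 bases around the start of the gene in RefSeq on GRCh38.p14, running 5′ to 3′, at chr14:94110486-94110785 on the plus strand, chr15:88638766-88639065 on the plus strand, chr21:41420308-41420607 on the plus strand and chr13:42992192-42992491 on the minus strand. Capitals mark matches to the element's letters, GAAA, any 2 bases and GAAA again, on either strand.
IFI27: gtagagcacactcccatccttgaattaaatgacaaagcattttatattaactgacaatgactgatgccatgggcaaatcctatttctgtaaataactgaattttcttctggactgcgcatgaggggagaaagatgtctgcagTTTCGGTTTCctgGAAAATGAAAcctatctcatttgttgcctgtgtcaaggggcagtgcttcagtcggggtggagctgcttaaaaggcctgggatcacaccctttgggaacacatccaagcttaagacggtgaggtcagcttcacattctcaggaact
ISG20: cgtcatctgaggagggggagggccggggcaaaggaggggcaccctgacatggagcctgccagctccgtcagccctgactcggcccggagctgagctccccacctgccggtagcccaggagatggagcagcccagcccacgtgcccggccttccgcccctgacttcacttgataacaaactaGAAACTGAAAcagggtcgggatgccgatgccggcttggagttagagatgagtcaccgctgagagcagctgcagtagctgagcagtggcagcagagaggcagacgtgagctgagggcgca
MX1: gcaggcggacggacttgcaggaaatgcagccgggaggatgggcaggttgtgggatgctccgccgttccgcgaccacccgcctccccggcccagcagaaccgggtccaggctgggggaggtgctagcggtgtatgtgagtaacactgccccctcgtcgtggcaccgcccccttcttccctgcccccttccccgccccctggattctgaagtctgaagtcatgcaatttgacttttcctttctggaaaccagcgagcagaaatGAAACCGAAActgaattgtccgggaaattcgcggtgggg
EPSTI1: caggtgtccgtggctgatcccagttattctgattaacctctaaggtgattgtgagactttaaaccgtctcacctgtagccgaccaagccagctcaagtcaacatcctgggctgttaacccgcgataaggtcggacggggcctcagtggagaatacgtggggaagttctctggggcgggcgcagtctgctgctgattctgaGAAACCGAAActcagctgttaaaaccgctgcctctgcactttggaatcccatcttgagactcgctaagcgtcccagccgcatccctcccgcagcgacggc
Of the 33 tested interferon genes with a promoter in the RefSeq table, 21 (63.6%) held the motif, against 290 of the 10152 promoters of all tested genes (2.86%). A match is a run of letters and no evidence of binding in these cells.

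Antigen presentation was lower in SCC-25 on the class II side. Of 11 tested class II genes, with the invariant chain CD74 and the regulator CIITA, 0 were higher and 7 lower by limma, with a median of -1.54. CD74 had log2 levels of 4.55, 4.85 and 4.54 in SCC-25, against 9.45, 9.36 and 9.45 in Cal-27 and was at least 21.9-fold lower, while the mean of its probes differed by -3.09. HLA-DRA had log2 levels of 7.21, 7.13 and 7.29 in SCC-25, against 9.33, 9.33 and 9.57 in Cal-27, a difference of -2.20 ± 0.11, and its other probe differed by -5.14 ± 0.11. HLA-DRB1 (-2.36 ± 0.17) and HLA-DMB (-1.91 ± 0.12) were lower. Of 14 class I and peptide loading genes 4 were higher and 7 lower, beside 28.9% and 28.8% of all genes, with a median of -0.27. HLA-F (2.13 ± 0.10), HLA-E (0.90 ± 0.09) and HLA-B (0.84 ± 0.10) were higher, although class I genes are alike in sequence and their probes may share signal. The other HLA-F probe differed by 0.22 ± 0.10 and was not called (adjusted p = 0.104).

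Inflammatory genes went both ways. Of 30 tested NF-kB targets and chemokines 11 were higher and 13 lower in SCC-25. PTGS2, cyclooxygenase 2, had log2 levels of 10.65, 11.13 and 11.12 in SCC-25, against 6.31, 5.96 and 6.25 in Cal-27, a difference of 4.79 ± 0.16 (adjusted p = 6.57e-08). The chemokines CXCL14 (2.55 ± 0.10), CCL5 (2.17 ± 0.12) and CXCL10 (1.42 ± 0.11) were higher. CX3CL1, fractalkine, had log2 levels of 5.33, 4.51 and 4.53 in SCC-25, against 9.16, 9.14 and 9.35 in Cal-27, a difference of -4.43 ± 0.21, and CCL2, a monocyte chemoattractant, was undetected in SCC-25 and at least 9.12-fold lower.

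Of 23 tested members of the IL-6 and IL-1 families 6 were higher and 10 lower. IL1RN, the antagonist of the IL-1 receptor, had log2 levels of 7.99, 8.41 and 8.51 in SCC-25, against 5.83, 5.42 and 5.31 in Cal-27, a difference of 2.78 ± 0.18. IL1A was higher by 1.55 ± 0.18, whereas the receptor IL1R1 was undetected in SCC-25 and at least 3.86-fold lower. IL6 had log2 levels of 6.47, 7.18 and 7.24 in SCC-25, against 8.48, 8.46 and 8.50 in Cal-27, a difference of -1.51 ± 0.19, and JAK1 was lower by -0.72 ± 0.10. The list's median was 0.09, and with a stricter filter on dim probes it was -0.29.

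Antioxidant genes were higher in SCC-25. NRF2 binds the antioxidant response element and induces enzymes that make or use glutathione and NADPH. Of 35 tested NRF2 and aldo-keto reductase genes 24 were higher and 4 lower, with a median of 0.56, and the 4 lower calls became 2 without any 1 of the Cal-27 arrays. GPX2, a glutathione peroxidase of epithelia, had log2 levels of 12.02, 12.18 and 12.10 in SCC-25, against 6.53, 6.44 and 6.07 in Cal-27. All SCC-25 arrays stood more than 5 log2 units above all Cal-27 arrays, and the difference was 5.75 ± 0.13 (adjusted p = 1.38e-08). AKR1C3, an enzyme of steroid and prostaglandin metabolism, had log2 levels of 10.25, 10.61 and 10.70 in SCC-25, against 6.07, 5.82 and 5.99 in Cal-27, a difference of 4.56 ± 0.14. AKR1C4 (4.46 ± 0.12) and AKR1C2 (4.22 ± 0.14) read much the same, and the near identity of this family leaves its members uncertain. GSTA4 was undetected in Cal-27 and at least 8.87-fold higher, while malic enzyme, ME1 (-0.73 ± 0.13), and PGD of the pentose phosphate pathway (-0.71 ± 0.10), both NADPH makers, were lower.

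GPX2 is shown as the member of this list with the largest difference. Its RefSeq promoter on GRCh38.p14, at chr14:64942696-64942995 on the minus strand, runs 5′ to 3′, with the match to TGACNNNGC on either strand in capitals.
GPX2: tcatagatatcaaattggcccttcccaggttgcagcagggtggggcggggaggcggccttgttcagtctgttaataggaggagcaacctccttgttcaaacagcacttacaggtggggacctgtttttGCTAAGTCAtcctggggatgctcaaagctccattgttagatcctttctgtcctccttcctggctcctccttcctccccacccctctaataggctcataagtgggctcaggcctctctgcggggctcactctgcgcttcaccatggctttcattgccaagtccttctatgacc
This motif was in 10 (38.5%) of the 26 tested genes of the list that have a RefSeq promoter, against 15.2% of the 10152 promoters of all tested genes.

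Retinoid handling was among the lists with large single differences. Of 30 tested AHR, retinoid and drug metabolism genes 12 were higher and 6 lower in SCC-25, with a median of 0.27. In all, 60% of them were called, beside 57.7% of all genes. ALDH1A3, which makes retinoic acid, had log2 levels of 12.58, 12.82 and 13.13 in SCC-25, against 9.22, 9.20 and 9.11 in Cal-27, a difference of 3.67 ± 0.14. CYP26B1, which degrades it, had log2 levels of 9.90, 10.05 and 10.01 in SCC-25, against 6.83, 6.32 and 6.74 in Cal-27, a difference of 3.36 ± 0.14. DHRS3, a retinal reductase, differed by 3.44 ± 0.14, and CRABP2, which carries retinoic acid to the nucleus, by 3.42 ± 0.19, while the receptor RARA was lower by -1.07 ± 0.11. UGT1A6, a glucuronidating enzyme that shares its last exons with the other UGT1A genes, differed by 4.54 ± 0.17.

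Sterol and fatty acid synthesis was lower in SCC-25 in 19 and higher in 2 of 28 tested genes, with a median of -0.59, the lowest of the prepared lists with 10 or more tested genes. INSIG1, which retains the SREBP activator in the endoplasmic reticulum, had log2 levels of 8.58, 9.12 and 8.63 in SCC-25, against 11.11, 10.64 and 10.76 in Cal-27, a difference of -2.06 ± 0.17. LSS, lanosterol synthase, had log2 levels of 7.88, 7.99 and 8.19 in SCC-25, against 9.82, 9.66 and 9.65 in Cal-27, a difference of -1.69 ± 0.11 (adjusted p = 3.76e-06). HMGCS1, at the head of the pathway (-1.31 ± 0.15), the reductase TM7SF2 (-1.71 ± 0.13) and acetyl-CoA carboxylase, ACACA (-1.32 ± 0.12), were lower. PMVK, phosphomevalonate kinase, ran the other way with 8.70, 8.52 and 8.59 in SCC-25, against 7.14, 7.14 and 6.75 in Cal-27, a difference of 1.59 ± 0.13.

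Genes of DNA replication and mitosis were lower in 26 and higher in 1 of 42 tested members, with a median of -0.49. RRM2, a subunit of ribonucleotide reductase, had log2 levels of 8.74, 8.43 and 8.36 in SCC-25, against 9.75, 10.03 and 9.99 in Cal-27, a difference of -1.41 ± 0.13. TYMS, thymidylate synthase (-1.21 ± 0.11), UHRF1, which maintains DNA methylation (-1.24 ± 0.10), MKI67, the proliferation marker Ki-67 (-1.13 ± 0.16), and GINS2 of the replicative helicase (-1.02 ± 0.11) were lower. FEN1, the 1 higher gene (0.26 ± 0.09), lost its call without any 1 of the 6 arrays, with adjusted p between 0.0559 and 0.127. TTTCCCGC, the motif of E2F factors, stood on either strand in 8 (22.9%) of the 35 tested members that have a RefSeq promoter, against 2.62% of the promoters of all tested genes.

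CDKN1A, the CDK inhibitor p21, had log2 levels of 11.48, 11.78 and 11.85 in SCC-25, against 8.38, 8.11 and 8.17 in Cal-27. The lines were more than 3 log2 units apart, and the difference was 3.49 ± 0.13 (adjusted p = 1.32e-07). It was the largest difference among 24 tested p53 targets, of which 10 were higher and 3 lower with a median of 0.23. SFN, 14-3-3 sigma (0.62 ± 0.10), and SESN1 (0.66 ± 0.11) were higher, and ZMAT3 (-1.23 ± 0.10, or -0.80 in the mean of its probes) was lower. Among 22 tested G1 regulators 7 were higher and 5 lower. Of the p53 targets 54.2% were called and of the G1 regulators 54.5%, beside 57.7% of all genes. CDKN1C was undetected in Cal-27 and at least 2.62-fold higher, MYC was higher by 0.69 ± 0.10, and CCND2 was lower by the difference -1.08 ± 0.13.

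**Figure D4:**
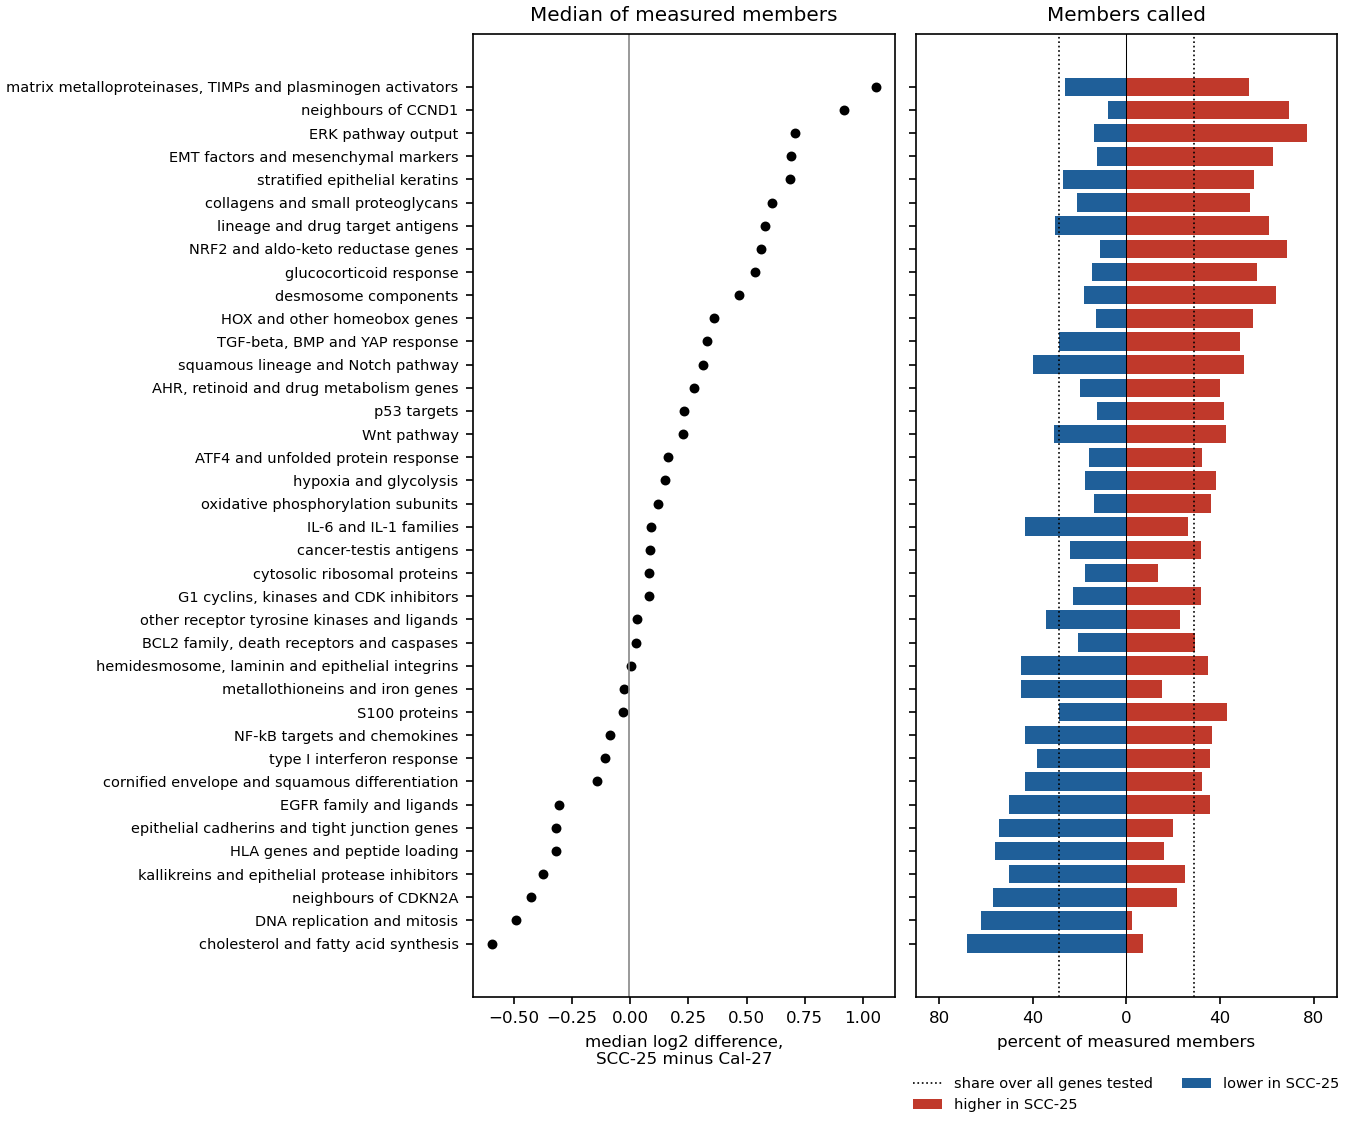
For each list with 10 or more tested genes, the left panel gives the median log2 difference, SCC-25 minus Cal-27, with the median of all genes as a grey line, and the right panel the percentage of tested members called higher (red, to the right) or lower (blue, to the left) in SCC-25. The dotted lines mark 28.9% and 28.8%, the shares over all genes, and the sterol list at the bottom and the matrix protease list at the top are furthest apart.

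The list of genes at and around CCND1 covers a part of the genome often amplified in head and neck carcinoma. Of its 13 tested members 9 were higher and 1 lower in SCC-25, with a median of 0.92. CCND1, cyclin D1, had log2 levels of 13.46, 13.61 and 13.56 in SCC-25, against 12.77, 12.91 and 12.95 in Cal-27, a difference of 0.67 ± 0.10. FADD, the adaptor of death receptors, had log2 levels of 12.51, 12.26 and 12.20 in SCC-25, against 9.94, 10.08 and 10.14 in Cal-27, a difference of 2.27 ± 0.12, and CTTN, cortactin, had 12.19, 12.10 and 12.29 in SCC-25, against 10.48, 10.47 and 10.49 in Cal-27, a difference of 1.71 ± 0.10. TPCN2 (2.23 ± 0.10) and PPFIA1 (1.46 ± 0.09) were higher, and SHANK2 was undetected in Cal-27 and at least 2.81-fold higher, with a difference of 0.98 in the mean of its probes. MYEOV, between TPCN2 and CCND1 in gene order, was the exception with 5.41, 5.50 and 5.34 in SCC-25, against 8.45, 8.66 and 8.61 in Cal-27, a difference of -3.15 ± 0.10. DNA copy number was not measured.

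CDKN2A, which encodes the CDK inhibitor p16 and ARF, had log2 levels of 4.45, 4.44 and 4.54 in SCC-25, against 7.29, 7.46 and 7.25 in Cal-27, undetected in SCC-25 and at least 5.17-fold lower. Its neighbour MTAP, of methionine salvage, had log2 levels of 7.95, 7.75 and 7.63 in SCC-25, against 9.78, 9.82 and 9.78 in Cal-27, a difference of -2.02 ± 0.11, with all arrays detected. CDKN2B, on the other side and chosen after its values were seen, had 7.66, 7.75 and 7.86 in SCC-25, against 8.04, 7.61 and 7.47 in Cal-27, a difference of 0.05 ± 0.15 that was not called (adjusted p = 0.807). TUSC1, further along, was undetected in Cal-27 and at least 7.48-fold higher in SCC-25. Over the 14 tested genes of the list at and around CDKN2A 3 were higher and 8 lower.

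Placing 12737 of the tested genes in RefSeq gene order gave 32 runs of at least 4 consecutive genes that were called and at least 2-fold apart in 1 direction, 20 higher and 12 lower in SCC-25. These runs were sought after the values were seen and carry no test. One run held BACE2, MX2, MX1, TMPRSS2, RIPK4, C2CD2 and ZBTB21, all 7 of them undetected on every SCC-25 array and detected on every Cal-27 array. The neighbours outside it, DSCAM before and ABCG1 after, were not lower at 2-fold, and ABCG1 had 7.54, 7.58 and 7.72 in SCC-25, against 6.26, 6.54 and 6.42 in Cal-27. DSCAM was detected on 1 SCC-25 array and 2 Cal-27 arrays, so it marks no edge. Past ABCG1, TMPRSS3 was again undetected in SCC-25 and at least 1.71-fold lower. SLC37A1 (-1.84 ± 0.16) and WDR4 (-1.97 ± 0.10) were lower too, while PDE9A between them and NDUFV3 after them were not called. In resistant SCC-25, BACE2, MX2, MX1 and ZBTB21 were again undetected on all 3 arrays, TMPRSS2 and C2CD2 were detected on 1, and RIPK4 on all 3.

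FAT1 lay in a similar stretch. SORBS2, TLR3, CYP4V2, FAT1 and FRG1 were undetected on all SCC-25 arrays, parental and resistant, and detected on all Cal-27 arrays of both kinds, with bounds of at least 7.36-fold, at least 1.28-fold, at least 2.02-fold, at least 57.2-fold and at least 20.8-fold lower in parental SCC-25. UFSP2, the tested gene before them, had 9.76, 9.80 and 9.84 in SCC-25, against 8.95, 8.82 and 8.88 in Cal-27. TRIML1, between FAT1 and FRG1, was detected on 2 of 3 parental arrays of each line.

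**Figure D5:**
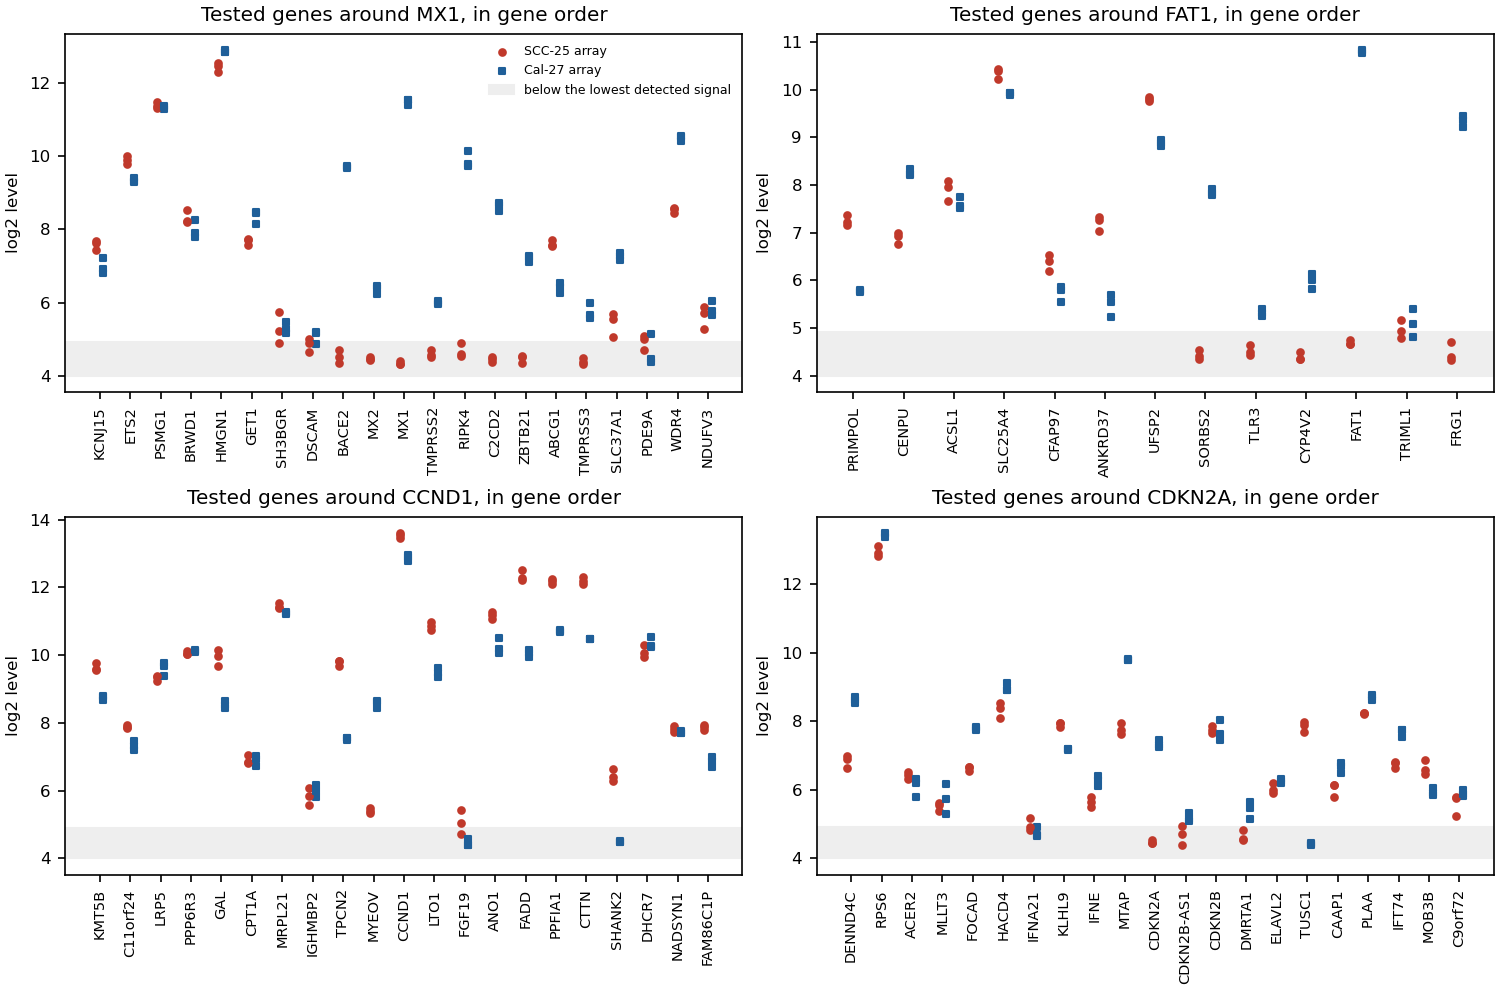
Log2 level on the vertical axis of tested genes in RefSeq gene order around MX1, FAT1, CCND1 and CDKN2A, with red circles for SCC-25 arrays (left in each column), blue squares for Cal-27 arrays (right) and a shaded band below 4.91, the lowest detected signal. The 7 genes from BACE2 to ZBTB21 and the 5 genes SORBS2, TLR3, CYP4V2, FAT1 and FRG1 are in the band in SCC-25 alone.

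Lineage regulators and Notch genes were higher in 15 and lower in 12 of 30 tested members. NOTCH3 had log2 levels of 5.90, 5.90 and 5.98 in SCC-25, against 9.35, 9.10 and 9.28 in Cal-27, and NOTCH1, the receptor that drives keratinocytes out of the basal layer, had 8.70, 8.47 and 8.79 in SCC-25, against 10.42, 10.29 and 10.42 in Cal-27. They were lower in SCC-25 by differences of -3.32 ± 0.10 and -1.72 ± 0.11, beside NOTCH2 (-0.92 ± 0.09) and the Notch-modifying glycosyltransferases MFNG (-2.34 ± 0.10) and LFNG (-1.02 ± 0.13). In the mean of their probes LFNG differed by -0.49 and DLK2 by 0.80. The Notch target HEY2 (2.60 ± 0.14), the ligand relative DLK2 (2.43 ± 0.11) and the oral epithelial factor PAX9 (2.36 ± 0.13) were higher. Of 39 tested homeobox genes 21 were higher and 5 lower, led by HOXC4 (1.98 ± 0.14), MSX1 (1.82 ± 0.12) and HOXC13 (1.81 ± 0.16), and the 21 became 11 with a stricter filter on dim probes.

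Among 26 tested Wnt pathway genes 11 were higher and 8 lower. The antagonist NKD2 was undetected in Cal-27 and at least 7.94-fold higher. TCF4, likewise undetected in Cal-27, was at least 3.48-fold higher, but this symbol names the E-box factor E2-2 and not the Wnt effector TCF7L2. LGR4, a receptor of R-spondins, had 6.06, 5.87 and 5.77 in SCC-25, against 8.45, 8.60 and 8.43 in Cal-27. Its difference was -2.59 ± 0.11. Of 35 tested TGF-beta, BMP and YAP response genes 17 were higher and 10 lower. BAMBI, a decoy receptor, had log2 levels of 9.49, 9.61 and 9.37 in SCC-25, against 5.61, 5.84 and 5.55 in Cal-27, a difference of 3.83 ± 0.12, and ID2 (2.61 ± 0.20) and SMAD6 (1.54 ± 0.12), of the BMP response, were higher. The YAP targets CCN1 and CCN2 had 9.24, 9.42 and 9.47 in SCC-25, against 11.95, 12.02 and 12.06 in Cal-27 and 8.03, 7.71 and 7.81 in SCC-25, against 9.56, 9.75 and 9.64 in Cal-27, differences of -2.63 ± 0.10 and -1.80 ± 0.12.

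Of 25 tested cancer-testis and related genes 8 were higher and 6 lower, or 56% called beside 57.7% of all genes. MAGEA3 and MAGEA12 were undetected in SCC-25 and at least 12.4-fold and at least 2.06-fold lower, beside MAGEA4 and MAGEA6 (-4.37 ± 0.12), although MAGEA genes are alike in sequence. BEX2 (1.99 ± 0.15) and MAGED2 (1.11 ± 0.18, or 0.46 in the mean of its probes) were higher. Of 23 tested surface antigens and drug targets 14 were higher and 7 lower. MSLN, mesothelin, had log2 levels of 9.17, 8.90 and 9.22 in SCC-25, against 5.12, 5.21 and 5.31 in Cal-27, a difference of 3.89 ± 0.12, and CD24 differed by 1.57 ± 0.09, MUC1 by -1.57 ± 0.26 (-1.03 in the mean of its probes) and the don't-eat-me signal CD47 by -1.18 ± 0.21.

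In 4 lists of metabolic and stress genes 48.4% to 60% of tested members were called, beside 57.7% of all genes. Of 34 tested hypoxia and glycolysis genes 13 were higher and 6 lower, or 3 lower without Cal-27 replicate 1. CA12, a carbonic anhydrase of the cell surface, had log2 levels of 10.05, 10.27 and 10.40 in SCC-25, against 5.18, 4.56 and 4.93 in Cal-27, a difference of 5.35 ± 0.17, and NDRG1 had 11.85, 12.23 and 12.35 in SCC-25, against 8.11, 7.85 and 7.67 in Cal-27, a difference of 4.27 ± 0.16. Of 31 tested ATF4 and unfolded protein response genes 10 were higher and 5 lower, and VLDLR differed by -2.0 ± 0.10. Of 20 tested metallothionein and iron genes 3 were higher and 9 lower, with MT1E at 10.65, 10.10 and 10.28 in SCC-25, against 12.94, 12.87 and 12.87 in Cal-27, a difference of -2.55 ± 0.14, ferritin light chain, FTL, at 1.01 ± 0.10 and the transferrin receptor, TFRC, at -0.63 ± 0.11. Of 34 tested genes of the BCL2 family, death receptors and caspases 10 were higher, or 6 without Cal-27 replicate 3, and 7 lower, with PMAIP1, NOXA, at 1.02 ± 0.11, cytochrome c, CYCS, at -1.68 ± 0.13 and CFLAR at -0.96 ± 0.14.

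Housekeeping lists lay near the median of all genes. Of 45 tested cytosolic ribosomal protein genes 6 were higher and 8 lower, with a median of 0.08, and of 50 tested oxidative phosphorylation genes 18 were higher and 7 lower, with a median of 0.12. The 18 were 11 without SCC-25 replicate 2 or 3, 10 without Cal-27 replicate 1 and 9 without Cal-27 replicate 3, and the 7 were 4 without SCC-25 replicate 2. The succinate dehydrogenase subunits SDHD (0.95 ± 0.11) and SDHC (0.93 ± 0.09) were higher. RPS23 had log2 levels of 6.64, 6.31 and 6.08 in SCC-25, against 9.0, 8.87 and 8.79 in Cal-27, a difference of -2.54 ± 0.15 for the probe kept.

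The comparison was repeated in the resistant cultures of the same lines, which are other samples. Of the 2384 genes at least 2-fold apart between the parental lines, 2130 were called in the same direction between resistant SCC-25 and resistant Cal-27, 65 in the opposite direction and 189 were not called. Among the 65 were HBEGF, at 1.37 between the parental and -2.70 between the resistant lines, ETV5 (1.90 and -1.50) and FGF2 (-1.67 and 1.105). CBL (1.16 and -0.10) was among the 189. Over all genes 64.5% were called between the resistant lines.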

How the data were processed

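Biotin-labelled cRNA of 12 SCC-25 and Cal-27 samples was read on Illumina beadchips, and parental arrays were grouped by their titles. Per the values, the deposited intensity values are bead signals on a linear scale, with a detection p-value deposited by the authors beside each. The submitters' processing notes name GenomeStudio, without a version. Of 47231 probes, 30113 had 1 symbol in GEO's annotation of the beadchip, 8 had more than 1, and 17110 were unnamed. Symbols of 30074 probes were matched to RefSeq on GRCh38.p14, and 0 changed.

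Background was corrected with neqc of limma 3.58.1 under R 4.3.3, from detection p-values with an offset of 16, followed by quantile normalization over the 12 arrays and log2. Probes with a detection p under 0.05 on at least 3 of these arrays were tested with lmFit and eBayes on the 6 parental arrays, which leaves 4 residual degrees of freedom. The brightest tested probe stands for a gene. Of 3439 genes with several tested probes, 92 had probes called in opposite directions, among the named genes CXCL16 and TRIM16. A bound compares the bright line's mean with, per array of the dim line, the higher of the lowest detected signal and the probe's own. The fit was tested on simulated data.

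The authors also deposited intensity values after processing of their own, with steps not given in the sources used here. Every column had a rank correlation of 1 with its array's bead signals, a median of 28.3% of its values were negative, and medians were 8.60 to 8.63. It served as an alternative.

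Members and the 45 gene lists were chosen with earlier results of these data known. Named genes are the 15 most extreme non-overlapping called genes in each direction, at most 5 called genes for each list and direction (all members of lists with 10 or fewer tested genes), the 10 largest bounds per direction, and every ERBB receptor probe tested. Replicate numbers do not pair the samples: deviations of same-numbered arrays correlated at -0.0145, -0.00305 and 0.0353. The number of arrays limits the precision.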

Additional observations from a re-analysis of the deposited data

Results flagged for a closer look

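The 30 most extreme genes, chosen on the parental arrays, were tested for a different gap between the resistant lines. The values are the parental minus the resistant difference (log2, both SCC-25 minus Cal-27), from limma's interaction over the 12 arrays with Benjamini-Hochberg adjustment, and 36.5% of all genes passed that test. The choice of genes by a large parental gap favours values that are smaller in the resistant lines. No cause was tested.

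Among genes higher in SCC-25, the gap was larger between the parental lines for LCP1 by 2.18 (adjusted p = 8.76e-06), LPXN by 1.93 (9.84e-06), CA12 by 1.57 (0.00011), MLLT11 by 0.68 (0.0295) and CRYAB by 0.65 (0.000863). It was smaller between the parental lines for MGST1, at -0.77 (0.000499), and GPX2, at -0.48 (0.0406).

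Among genes lower in SCC-25, a negative value means a larger gap between the parental lines. PI3 stood furthest, at -4.25 (adjusted p = 0.000163), followed by RIPK4 at -1.26 (0.000101), NLRP2 at -0.67 (0.00422), PLS1 at -0.37 (0.0497) and MX1 at -0.37 (0.03). The gap was larger between the resistant lines for CD74, at 1.61 (3.81e-06), OLFM4, at 1.33 (1.37e-05), CX3CL1, at 1.01 (0.0107), BACE2, at 0.91 (0.000189), and PGGHG, at 0.86 (0.00155). For genes undetected in 1 line these values compare measured log2 levels that include levels of undetected probes.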

How the results depend on the processing

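Of 16 alternatives, 6 left out 1 array each. The count of called genes stayed between 6469 and 7176 without 1 array and that of 2-fold genes between 2341 and 2467, against 7358 and 2384 with all. Without background correction 1089 genes were at least 2-fold apart, 609 higher and 480 lower in SCC-25, since uncorrected signals compress ratios. With a neqc offset of 50 the numbers were 1606, 884 and 722. The other counts over all genes stayed within 1.5 times, among them 6944 called and 2838 at 2-fold with the authors' processed values, and 6590 called with median scaling in place of quantiles. The replicate block gave 7128 called genes and 2384 at 2-fold. It lowered the oxidative phosphorylation genes called higher to 11 and lost the calls of TRIM16, FEN1, CCNG1 and LYZ among the named genes. Of 388 named genes, 381 were called, 354 kept the call under every alternative, 27 lost it under at least 1, and 0 changed sign while called. The size of the difference moved by over 1.5 times for 186 of the 388 under at least 1 alternative. It did so for 170 without background correction, for 70 with an offset of 50 and for 33 in the mean of a gene's probes, and for 45 when both background settings are set aside. Over all lists and alternatives, 159 list medians moved by more than the spread between replicates, 560 stayed within it and 1 reversed. The median of the IL-6 and IL-1 list reversed to -0.29 when detection p under 0.01 was asked on all 3 arrays of a parental line, where fewer genes are tested. With median scaling, 10 oxidative phosphorylation genes were called higher, against 18, and 4 lower, against 7. Ribosomal genes called higher numbered 13 without background correction and 12 with the authors' processed values. The slide as a block was not run, because the files used here name no slide. Genes near the detection limit have bounds, not folds, and the medium differs with the line.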

Other observations

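Probes annotated to small nucleolar RNAs, the guides of rRNA modification, and to the genes that host them mostly read lower in SCC-25. Whether such probes read the small RNA or a longer host transcript was not tested. Some members are neighbours, such as SNHG1, SNORD22, SNORD31 and SNORD30, and may not be independent. This family was chosen after its values were seen. Of 153 tested genes whose names begin with SNORA, SNORD, SCARNA or SNHG, 112 were lower and 6 higher, against 28.8% and 28.9% of all genes, with a median difference of -0.98 beside -0.005. At least 2-fold lower were 75 of the 153, beside 8.62% of all genes. Detected on all Cal-27 arrays and on no SCC-25 array were 29, beside 2.29% of all genes. The median log2 level of the 153 genes was 5.28, 5.22 and 5.21 on the SCC-25 arrays and 6.09, 6.16 and 6.32 on the Cal-27 arrays. The SCC-25 medians lie close to the lowest detected signals of those arrays, 4.91, 4.94 and 5.05. On the resistant arrays it was 5.14, 5.26 and 5.38 in SCC-25 and 6.0, 5.98 and 5.99 in Cal-27, so that the lines did not overlap in either pair.

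The 4 neighbouring zinc finger genes, ZNF613, ZNF350, ZNF615 and ZNF614, were detected on the SCC-25 arrays and undetected on every Cal-27 array, with bounds from at least 1.66-fold for ZNF350 to at least 7.42-fold for ZNF613. Of 357 tested genes named ZNF, 88 (24.6%) were higher and 123 (34.5%) lower in SCC-25, beside 28.9% and 28.8% of all genes. Of the 357, 20 were detected in SCC-25 alone and 6 in Cal-27 alone, beside 443 (3.47%) and 292 (2.29%) of all 12758 genes. The ZNF family was also chosen after its values were seen. Genes of the matrix metalloproteinase cluster, MMP1, MMP3, MMP12 and MMP13, formed a run of higher genes, with differences of 2.03 (MMP13) to 3.75 (MMP3) and a bound of at least 1.79-fold for MMP12, undetected in Cal-27. The small proline-rich genes SPRR1A, SPRR3, SPRR1B and SPRR2D formed a run of lower ones, with differences of -3.09 (SPRR1A) to -1.44 (SPRR1B) and a bound of at least 2.57-fold for SPRR3, undetected in SCC-25.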
